A study of Mus musculus with 12 samples.

Results

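The genes described here make up the transcriptional program of the factor ATF4, which answers amino acid shortage and mitochondrial stress, together with the enzymes of serine synthesis and of folate one-carbon metabolism. They were chosen by symbol from a list of 46 names, and 45 were found among the 40690 gene identifiers of the deposited table, since Mars1 and Mars name the same synthetase and the table holds it as Mars. Of these 45 genes, 44 were high enough to test, and Fgf21 was not. RNA of the right atrium was sequenced in 6 iNICD and 6 littermate control libraries. The mice were adults that received doxycycline in their food for 3 weeks from 2 to 3 months of age, and tissue was taken with no washout. The series title speaks of transient Notch activation, and iNICD is the genotype label. The sources used here do not give the driver of the transgene, the alleles carried by the controls or the sex of the mice.

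ATF4 protein is made when stress kinases phosphorylate the initiation factor eIF2, which slows translation in general but favours the Atf4 message. ATF4 pairs with C/EBP proteins on C/EBP-ATF response elements and drives genes of amino acid synthesis, tRNA charging and feedback control. Serine gives up a one-carbon unit to folate, and the MTHFD and ALDH1L enzymes convert that unit in mitochondria and in the cytosol for use in purine, thymidine and methionine metabolism. In heart muscle the program is known from mitochondrial disease models, in which Mthfd2, Asns, Trib3 and Gdf15 are induced.

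The libraries held 12015650 to 22716190 reads assigned to genes. Notch1 averaged 4335 ± 906 CPM (read counts scaled to library size) in iNICD and 246 ± 33.8 CPM in control libraries (SD, n = 6 each), with no overlap. The summed level of 7 atrial muscle markers was 55595 to 63468 CPM in iNICD and 74245 to 79147 CPM in control libraries, and 4 of the 7 (Myl7, Myl4, Nppa and Sln) fell. In bulk tissue, fewer cells of a type and less RNA per cell cannot be told apart. The summed level of 5 ventricular markers was 516 to 2481 CPM in iNICD and 546 to 2966 CPM in control libraries. Of these, Myh7 averaged 1372 ± 734 CPM in iNICD and 1347 ± 860 CPM in control libraries (SD, n = 6 each). Myl2 was at 1.69 to 9.98 CPM in iNICD and 1.40 to 50.2 CPM in control libraries. Xist was at 464 to 649 CPM in iNICD 1 to 3 and in control 1, 2, 3 and 5, and at 7.07 to 13.5 CPM in the other 5 libraries. The RNA Gm42418 stood at 20234 to 30814 CPM in iNICD 3, iNICD 5 and control 3, so results are also given without these 3 libraries. It stood at 4790 CPM in iNICD 4, which stays in that fit, and at 119 to 917 CPM in the remaining libraries.

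The core ATF4 element was looked for first in the promoters, because ATF4 is known to bind it in several of these genes. RefSeq windows (GRCm38.p6) from 250 bases before to 50 bases after the gene start were on hand for 37 of the 45 genes. The letters TGATGNAA, or TTNCATCA where the element lies on the other strand, occurred in 12 of the 37 windows (32.4%), against 1096 of 27025 promoters of the same length (4.06%). The genes were listed for their place in the ATF4 program, so this difference can come from that choice alone. A match was present in 5 of 13 genes that rose in iNICD atria, in 6 of 23 that were tested and not called, and in the untested Fgf21. For 11 of these genes the match is shown in 30 bases of the gene's own strand, read 5′ to 3′, with the matched letters in capitals. The first 5 genes rose, the next 5 were not called, and Fgf21 comes last.
Asns: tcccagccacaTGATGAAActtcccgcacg
Chac1: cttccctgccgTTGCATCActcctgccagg
Pck2: agccttcaaagTTACATCAgtatcttacag
Gars: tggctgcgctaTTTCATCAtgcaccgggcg
Trib3: ttagctcaggtTTACATCAgccgggcgggg
Iars: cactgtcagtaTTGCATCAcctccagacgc
Tars: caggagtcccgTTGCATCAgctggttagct
Yars: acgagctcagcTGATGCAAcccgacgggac
Pycr1: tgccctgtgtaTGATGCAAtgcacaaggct
Nupr1: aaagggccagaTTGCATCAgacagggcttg
Fgf21: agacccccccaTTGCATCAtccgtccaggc
The intervals given here are those of the 30 bases, and starts are those of RefSeq. The matches of Asns (chr6:7693214-7693243, minus strand), Gars (chr6:55037960-55037989, plus strand), Pck2 (chr14:55540152-55540181, plus strand) and Chac1 (chr2:119351038-119351067, plus strand) lay before the RefSeq start. The match of Trib3 (chr2:152344028-152344057, minus strand) lay after it. The exact letters differed between these sets. TTGCATCA or its reverse complement stood in Chac1 alone of the 5 matched genes that rose, and in all 6 matched genes that were tested and not called. It also stood in the untested Fgf21. This contrast was made after the letters were seen and was not tested. The windows of Mthfd2, Phgdh, Gdf15, Atf5, Sars, Sesn2, Aldh18a1 and Ddit3, which rose, held none of these letters, which says nothing of other windows of these genes. A match is a description of letters and not of a bound site. The whole 250 bases before the RefSeq start are shown for Asns (chr6:7693210-7693459, minus strand), whose element is among the best studied, and for Chac1 (chr2:119350992-119351241, plus strand), where the letters lie farther from the start. GENCODE M21, used for gene positions elsewhere, starts both genes farther upstream, Asns at 7693254 and Chac1 at 119351229, so the last bases of both stretches, with the Asns match, lie inside the GENCODE gene. For Trib3 the GENCODE start, 152344032, lies farther downstream than that of RefSeq, so the Trib3 match lies before the GENCODE start. In the stretches below, the capitals mark the same match as above.
Asns: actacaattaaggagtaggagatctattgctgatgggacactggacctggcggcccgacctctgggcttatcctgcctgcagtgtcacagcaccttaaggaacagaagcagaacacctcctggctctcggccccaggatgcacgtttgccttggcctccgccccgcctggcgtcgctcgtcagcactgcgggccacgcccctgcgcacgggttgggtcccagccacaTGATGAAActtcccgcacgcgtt
Chac1: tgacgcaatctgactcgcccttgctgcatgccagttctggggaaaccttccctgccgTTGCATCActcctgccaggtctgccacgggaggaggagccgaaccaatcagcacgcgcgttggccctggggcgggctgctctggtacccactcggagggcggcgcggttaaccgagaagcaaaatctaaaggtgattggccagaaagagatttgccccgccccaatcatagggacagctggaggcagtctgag

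Part of this program was higher in iNICD atria, and no gene of it was called lower. By limma on log2(CPM + 0.5) with Benjamini-Hochberg adjustment over 14336 genes, 16 of the 44 genes tested rose (36.4%), where 4.87% of all genes tested were called higher. None fell, where 1.84% of all genes were called lower and 6.71% were called in either direction. At an unadjusted p under 0.05 the limma counts were 22 higher and 0 lower, where 13.3% of all genes were higher and 5.53% lower. With edgeR 14 were higher and 0 lower, where 4.44% of all genes were higher and 2.66% lower. With DESeq2 16 were higher and 0 lower, where 5.86% of all genes with an adjusted p were higher and 4.11% lower. All 6 iNICD libraries lay above all 6 control libraries for 11 of the 44 genes, against 3.46% of all genes tested, or 4.59% counting separation in either direction. A log2 fold change of 1 or more was reached by 7 of the 44, against 1.46% of all genes. The median log2 fold change was 0.23 over the 44 genes and 0.05 over all genes tested. Gdf15 passed the filter on low values through its iNICD libraries, since control 4 was its only control library at 1 CPM or more. Phgdh and Chac1 also needed iNICD libraries to pass. Phgdh was at 0.880 and 0.832 CPM in control 1 and 2, and Chac1 at 0.968 and 0.944 CPM in control 1 and 3. Gdf15, Phgdh and Chac1 are counted in the 16 that rose, the 11 without overlap and the 7 with the larger fold changes.

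**Figure D1:**
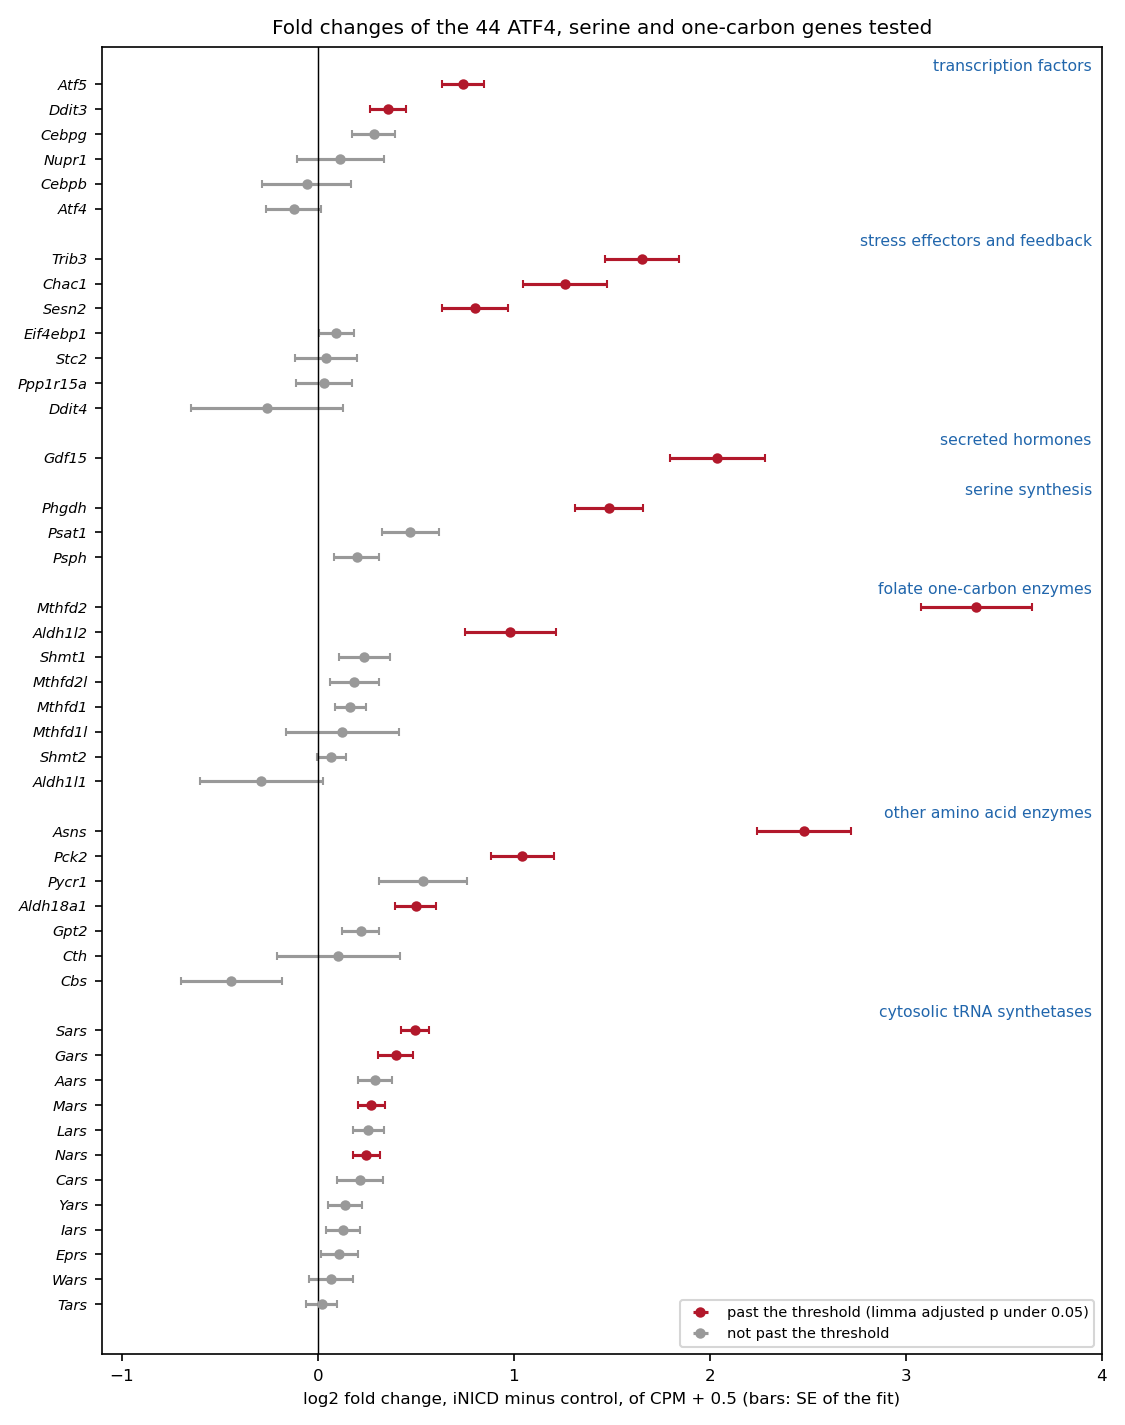
Log2 fold change of CPM + 0.5 (x axis, iNICD minus control) of each of the 44 genes tested, grouped by role, with bars for the standard error of the fit. Red genes passed the limma threshold of 0.05 and grey genes did not. Mthfd2 (3.36) and Asns (2.48) lie farthest to the right, the called tRNA synthetases lie between 0.25 and 0.50, and Atf4 lies at -0.12.

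Of the 6 transcription factors, 2 rose and Atf4 itself was not among them. Atf4 was at 92.0, 107, 92.9, 72.1, 85.3 and 79.4 CPM in iNICD 1 to 6, against 84.4, 89.1, 76.2, 140.3, 115 and 80.3 CPM in control 1 to 6. The groups overlapped, and control 4 was highest. The log2 fold change was -0.12 (SE 0.14, limma adjusted p = 0.71, exact permutation p = 0.47).

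Atf5, a relative of Atf4 with a role in the mitochondrial stress response, rose. Atf5 was at 119, 111, 93.7, 72.8, 97.4 and 103 CPM in iNICD 1 to 6, against 55.5, 68.7, 63.5, 61.0, 53.6 and 51.2 CPM in control 1 to 6. The groups did not overlap, and iNICD 4 came closest to the controls. The mean was 1.69-fold higher, with a log2 fold change of 0.74 (SE 0.11, limma adjusted p = 0.00056). Per exon length, the level of Atf5 was 49.9 ± 8.01 CPM per kb in iNICD and 29.6 ± 3.32 CPM per kb in control libraries, beside 37.3 ± 5.09 and 41.4 ± 10.6 CPM per kb of Atf4 in iNICD and in control libraries (SD, n = 6 each).

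Ddit3, which encodes the stress factor CHOP, rose by less. Ddit3 was at 37.6, 33.0, 31.9, 31.3, 36.4 and 38.8 CPM in iNICD 1 to 6, against 27.5, 28.5, 23.7, 23.2, 28.9 and 31.0 CPM in control 1 to 6. The groups did not overlap, but iNICD 4 and control 6 nearly met. For Ddit3 the log2 fold change was 0.36 (SE 0.09, limma adjusted p = 0.025). The call was lost without iNICD 1 (limma adjusted p = 0.067), iNICD 6 (0.061) or control 3 (0.056), and without the 3 Gm42418-rich libraries (0.12). Exons of Mars on the opposite strand cover 3.97% of the exon length of Ddit3, and the sources used here do not say whether reads were counted by strand.

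The other 3 factors were not called. Cebpg, a C/EBP partner of ATF4, averaged 36.6 ± 5.93 CPM in iNICD and 29.7 ± 3.16 CPM in control libraries (SD, n = 6 each), a log2 fold change of 0.29 with limma adjusted p = 0.15. Its level was 43.7, 41.3 and 40.0 CPM in iNICD 1 to 3 and 28.8, 33.7 and 31.8 CPM in iNICD 4 to 6, so its highest levels were in the iNICD libraries with high Xist. Cebpb, a C/EBP factor of inflammation and metabolism, had a log2 fold change of -0.06 (limma adjusted p = 0.93), and Nupr1, a stress-induced chromatin protein gene, had 0.11 (0.85).

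Among 7 stress effectors and feedback genes, 3 rose. Trib3, a pseudokinase that ATF4 and CHOP induce and that restrains them in turn, was at 11.02, 8.05, 5.66, 4.71, 7.95 and 7.27 CPM in iNICD 1 to 6, against 1.85, 1.41, 1.81, 2.99, 1.78 and 2.08 CPM in control 1 to 6. Every iNICD library lay above every control library. The mean was 3.75-fold higher, with a log2 fold change of 1.65 (SE 0.19, limma adjusted p = 5.5e-05, exact permutation p = 0.0022, the smallest that 924 relabellings can give). Chac1, an enzyme that breaks down glutathione, was at 5.96, 5.32, 3.43, 3.87, 3.65 and 3.30 CPM in iNICD 1 to 6, against 0.968, 1.58, 0.944, 2.87, 1.16 and 1.66 CPM in control 1 to 6. The groups did not overlap, and control 4 stood above the other controls. The log2 fold change of Chac1 was 1.26 (SE 0.21, limma adjusted p = 0.0017).

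Sesn2, a sestrin that restrains mTORC1 when leucine is short, was at 13.0, 14.7, 10.2, 5.93, 11.96 and 10.6 CPM in iNICD 1 to 6, against 6.16, 6.41, 5.35, 5.54, 6.22 and 5.93 CPM in control 1 to 6. Of the iNICD libraries, 5 lay above all controls, and iNICD 4 lay among the controls. This gave a log2 fold change of 0.80 (SE 0.17, limma adjusted p = 0.0086), and the call was lost without the 3 Gm42418-rich libraries (0.089). The other 4 genes were not called. Ppp1r15a encodes the subunit that brings a phosphatase back to eIF2, and averaged 63.8 ± 3.90 CPM in iNICD and 64.3 ± 18.2 CPM in control libraries (SD, n = 6 each). Ddit4, an inhibitor of mTORC1, averaged 17.9 ± 12.7 CPM in iNICD and 20.0 ± 9.22 CPM in control libraries (SD, n = 6 each), and its log2 fold change had the largest standard error of the 7 (0.39). Eif4ebp1, a translation repressor, had a log2 fold change of 0.09 (limma adjusted p = 0.63) and Stc2, a secreted glycoprotein, had 0.04 (0.93).

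Of the secreted hormones, Gdf15 rose. Gdf15 signals cell stress to the brainstem, and was at 6.31, 5.48, 4.71, 3.09, 3.58 and 3.17 CPM in iNICD 1 to 6, against 0.528, 0.832, 0.315, 1.72, 0.547 and 0.415 CPM in control 1 to 6. The groups did not overlap, and control 4 was again the highest control. The mean was 6.04-fold higher, with a log2 fold change of 2.04 (SE 0.24, limma adjusted p = 6.9e-05). Fgf21, a metabolic hormone of liver and stressed muscle, was at 0.0693 CPM in iNICD 1, 0.143 CPM in iNICD 5, 0.0661 CPM in iNICD 6 and 0 in the other 3 iNICD libraries, and was at 0 in all 6 control libraries. These values rest on 4 reads in all and allow no fold change.

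In serine synthesis, 1 of 3 enzymes rose, and it was Phgdh, which takes the committed step from 3-phosphoglycerate. Phgdh was at 5.20, 5.32, 5.34, 3.42, 3.72 and 3.50 CPM in iNICD 1 to 6, against 0.880, 0.832, 1.42, 1.59, 1.64 and 1.19 CPM in control 1 to 6. The groups did not overlap, and the iNICD libraries fell into a higher set, 1 to 3, and a lower set, 4 to 6, as their Xist levels did. The mean was 3.51-fold higher, with a log2 fold change of 1.49 (SE 0.17, limma adjusted p = 6.1e-05).

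Psat1, the next enzyme of the pathway, averaged 7.68 ± 1.22 CPM in iNICD and 5.44 ± 1.17 CPM in control libraries (SD, n = 6 each), a log2 fold change of 0.47 that missed the threshold (limma adjusted p = 0.069). It passed without control 4 (0.017), which at 7.33 CPM was its highest control. Psph, which releases serine, was at 12.4, 13.3, 12.05, 9.22, 12.1 and 11.4 CPM in iNICD 1 to 6, against 11.4, 10.7, 8.96, 8.03, 10.6 and 11.5 CPM in control 1 to 6. The Psph groups overlapped (log2 fold change 0.20, limma adjusted p = 0.39). Cct6a on the opposite strand shares 10.4% of the exon length of Psph and averaged 80.5 CPM in iNICD and 82.0 CPM in control libraries. Whether its reads entered the Psph level was not tested.

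**Figure D2:**
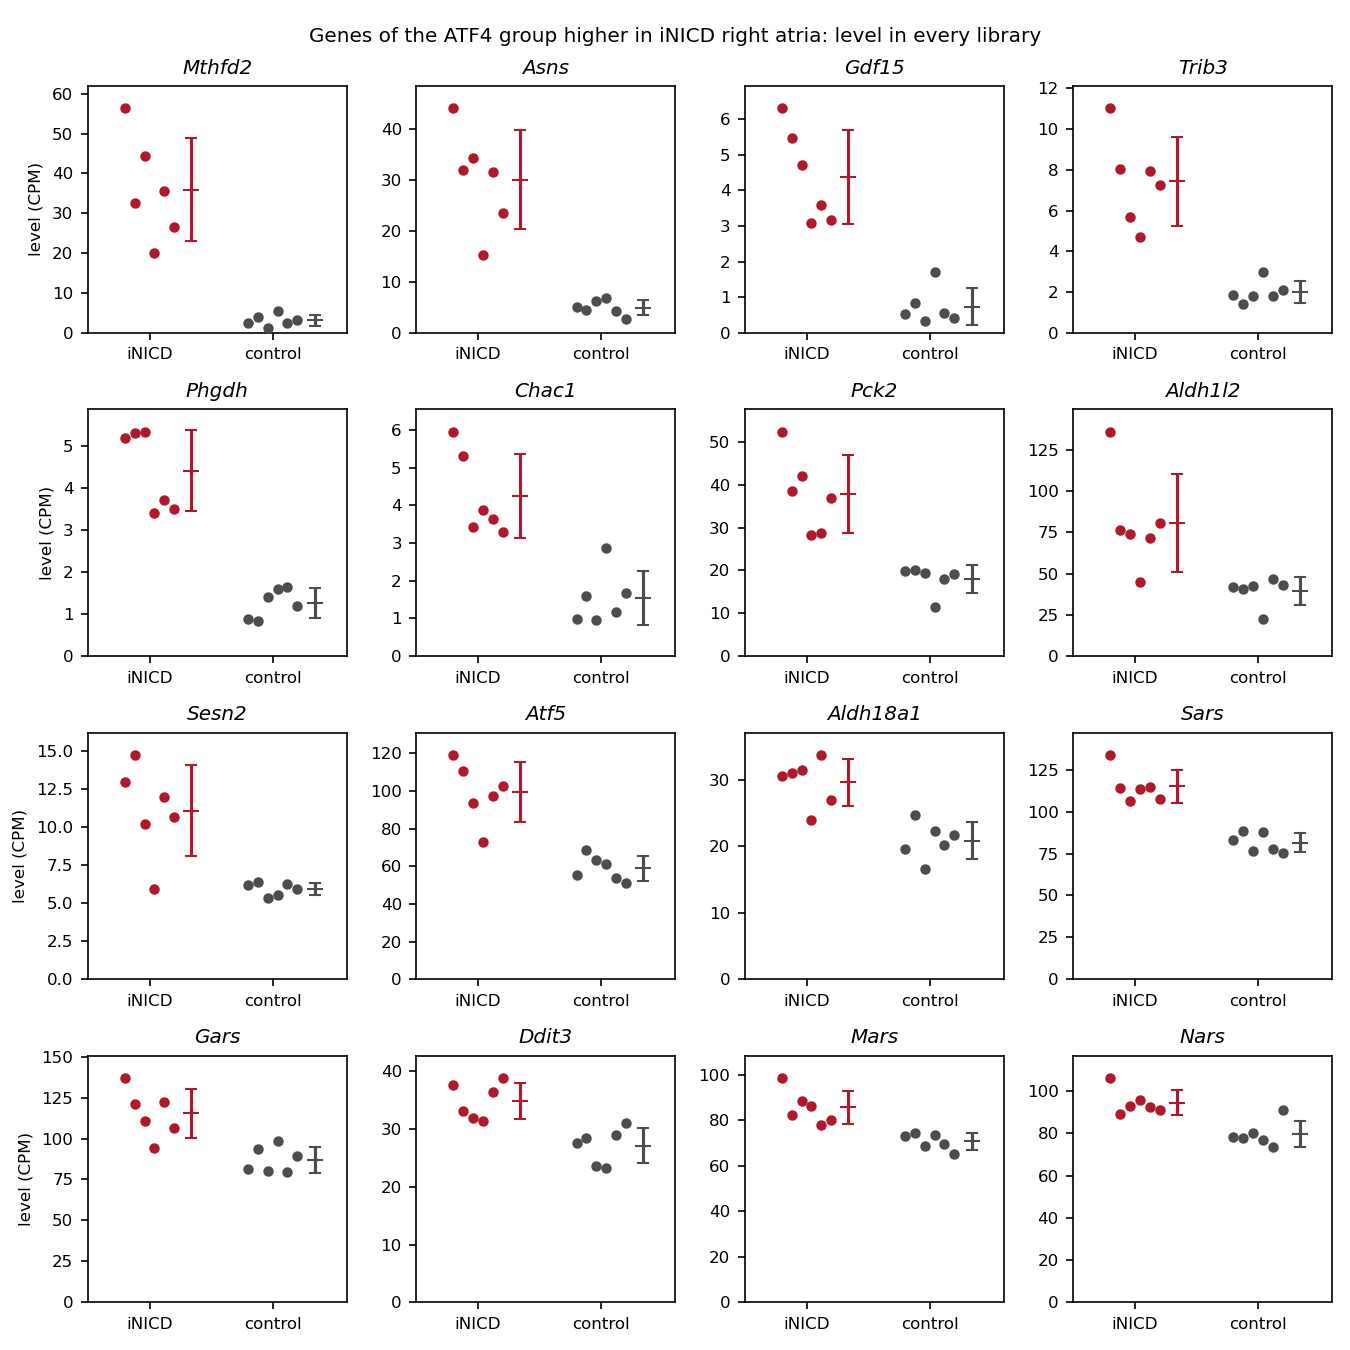
Level in CPM (y axis, from 0, a scale for each gene) of the 16 genes that rose, in every library, with points for iNICD libraries 1 to 6 and then control libraries 1 to 6 from left to right within each group, and bars for mean and SD. Mthfd2 is at 20.0 CPM or more in iNICD and at 5.35 CPM or less in control libraries, while the groups of Nars overlap at control 6.

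Folate metabolism held the largest change of the program. Mthfd2, the mitochondrial enzyme that oxidises methylene-folate and is low in most adult tissues (ENSMUSG00000005667, chromosome 6, 83305691 to 83325908, minus strand, GENCODE M21 on GRCm38), was at 56.4, 32.7, 44.5, 20.0, 35.7 and 26.5 CPM in iNICD 1 to 6. It was at 2.55, 3.83, 1.26, 5.35, 2.46 and 3.08 CPM in control 1 to 6. The lowest iNICD library, iNICD 4, still lay far above the highest control library, control 4. The mean was 11.6-fold higher, with a log2 fold change of 3.36 (SE 0.28, limma adjusted p = 6.7e-06, exact permutation p = 0.0022), and leaving out single libraries gave 3.17 to 3.52.

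Its isozyme Mthfd2l, which catalyses the same step in mitochondria, was not called. Mthfd2l was at 7.001, 8.62, 7.10, 8.19, 6.16 and 7.80 CPM in iNICD 1 to 6, against 7.75, 5.83, 5.66, 5.35, 7.32 and 7.29 CPM in control 1 to 6. The groups overlapped (log2 fold change 0.19, SE 0.12, limma adjusted p = 0.47). Per exon length, the level of Mthfd2 was 10.3 ± 3.73 CPM per kb in iNICD and 0.886 ± 0.399 CPM per kb in control libraries (SD, n = 6 each). The level of Mthfd2l on the same scale was 1.13 ± 0.135 CPM per kb in iNICD and 0.983 ± 0.155 CPM per kb in control libraries (SD, n = 6 each). On this scale the isozymes lay within their spread of each other in control atria. That rests on the lengths used, 6645 bases for Mthfd2l and 3487 for Mthfd2, which count all annotated exons. In CPM the control means were 6.53 ± 1.03 for Mthfd2l and 3.09 ± 1.39 for Mthfd2 (SD, n = 6 each).

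Aldh1l2, the mitochondrial enzyme that oxidises formyl-folate and yields NADPH, rose with a wider spread. Aldh1l2 was at 136, 76.5, 74.2, 45.2, 71.5 and 80.8 CPM in iNICD 1 to 6, against 42.1, 40.6, 42.4, 22.6, 46.6 and 42.9 CPM in control 1 to 6. iNICD 1 stood above the rest, iNICD 4 lay among the controls, and control 4 lay below them. This was a log2 fold change of 0.98 (SE 0.23, limma adjusted p = 0.022), and the call was lost without the 3 Gm42418-rich libraries (log2 fold change 1.05, 0.10). D10Wsu102e on the opposite strand shares 14.1% of the exon length of Aldh1l2 and averaged 20.4 CPM in iNICD and 18.9 CPM in control libraries.

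The other 5 folate enzymes were not called. Shmt1, the cytosolic enzyme that moves the one-carbon unit between serine and folate, was at 6.58, 9.42, 6.06, 6.90, 5.94 and 7.07 CPM in iNICD 1 to 6, against 7.31, 5.49, 5.74, 4.78, 5.75 and 5.93 CPM in control 1 to 6. The groups overlapped (log2 fold change 0.24, limma adjusted p = 0.36). Shmt2, its mitochondrial counterpart, averaged 40.9 ± 1.55 CPM in iNICD and 39.1 ± 3.70 CPM in control libraries (SD, n = 6 each). Mthfd1, the cytosolic enzyme of several folate steps, averaged 44.8 ± 2.90 CPM in iNICD and 40.0 ± 4.09 CPM in control libraries (SD, n = 6 each; limma adjusted p = 0.28). Aldh1l1, the cytosolic relative of Aldh1l2, had a log2 fold change of -0.29 (limma adjusted p = 0.70), and Mthfd1l, the mitochondrial enzyme that releases formate, had 0.13 (0.88).

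Per exon length, the order of the folate enzymes differed between the groups. The order across genes depends on that length, which counts all annotated exons of a gene. In iNICD libraries Shmt2 (13.2 ± 0.4998 CPM per kb), Aldh1l2 (10.8 ± 3.99), Mthfd2 (10.3 ± 3.73) and Mthfd1 (10.1 ± 0.654) came first, and the last 3 of these did not differ beyond their spread. In control libraries Shmt2 (12.6 ± 1.19 CPM per kb) and Mthfd1 (9.01 ± 0.921) came first, Aldh1l2 (5.27 ± 1.14) and Aldh1l1 (4.88 ± 1.80) followed within their spread, and Mthfd2 (0.886 ± 0.399) stood beside Mthfd1l (0.872 ± 0.510) at the low end (SD, n = 6 for each).

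**Figure D3:**
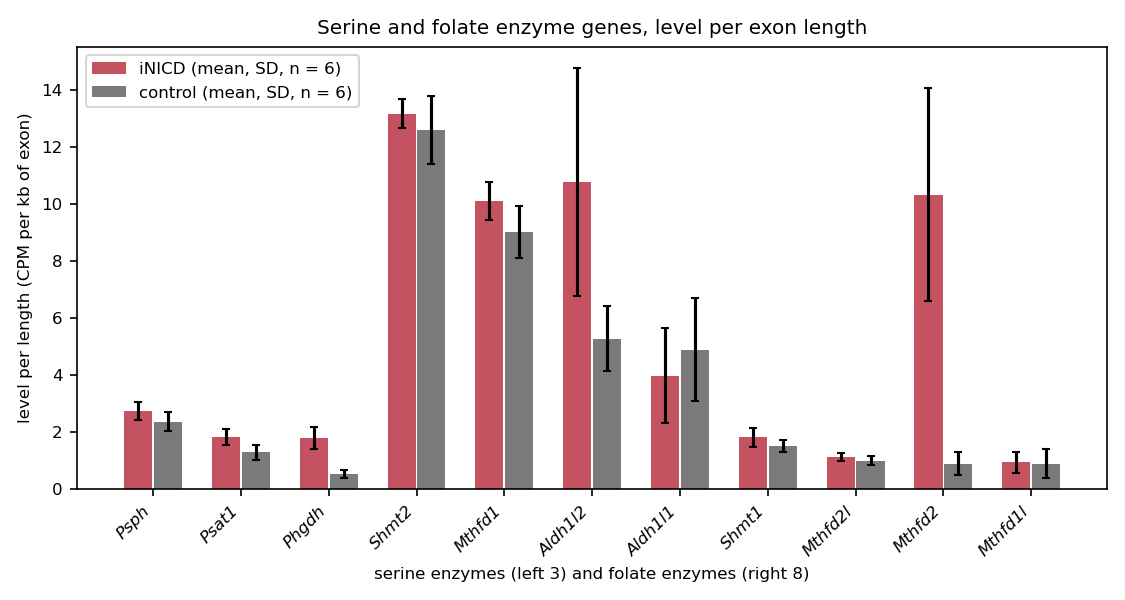
Mean level per exon length (y axis, CPM per kb, from 0; bars from SD, n = 6) of the 3 serine enzymes (left) and the 8 folate enzymes (right) in iNICD (red) and control (grey) libraries. Mthfd2 stands at 10.3 CPM per kb in iNICD and 0.886 CPM per kb in control libraries, while Shmt2 stands at 13.2 CPM per kb in iNICD and 12.6 CPM per kb in control libraries.

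Among 7 other enzymes of amino acid metabolism, 3 rose. Asns, which makes asparagine (ENSMUSG00000029752, chromosome 6, 7675169 to 7693254, minus strand), was at 43.9, 31.8, 34.1, 15.2, 31.5 and 23.5 CPM in iNICD 1 to 6, against 5.02, 4.41, 6.13, 6.75, 4.31 and 2.67 CPM in control 1 to 6. iNICD 4 was the lowest of its group and control 4 the highest of the controls, without overlap. The mean was 6.15-fold higher, with a log2 fold change of 2.48 (SE 0.24, limma adjusted p = 2.0e-05). Pck2, the mitochondrial enzyme that makes phosphoenolpyruvate, was at 52.4, 38.6, 42.1, 28.3, 28.6 and 37.0 CPM in iNICD 1 to 6, against 19.9, 20.1, 19.4, 11.5, 17.9 and 19.0 CPM in control 1 to 6. Here control 4 was the lowest control, and the groups did not overlap. Pck2 had a log2 fold change of 1.04 (SE 0.16, limma adjusted p = 0.001).

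Aldh18a1, the first enzyme of proline synthesis from glutamate, was at 30.5, 30.9, 31.4, 24.0, 33.7 and 27.0 CPM in iNICD 1 to 6, against 19.6, 24.6, 16.5, 22.3, 20.2 and 21.6 CPM in control 1 to 6. iNICD 4 lay below control 2, and the other 5 iNICD libraries lay above all controls. The log2 fold change was 0.50 (SE 0.10, limma adjusted p = 0.0087), and the call was lost without the 3 Gm42418-rich libraries (log2 fold change 0.36, 0.094). Pycr1, the last enzyme of the same pathway, averaged 4.87 ± 1.55 CPM in iNICD and 3.09 ± 0.673 CPM in control libraries (SD, n = 6 each), a log2 fold change of 0.54 (limma adjusted p = 0.20). Without iNICD 4, which at 2.00 CPM was its lowest iNICD library, the log2 fold change of Pycr1 was 0.74 and passed (0.014). Gpt2, the mitochondrial alanine aminotransferase, had a log2 fold change of 0.22 (limma adjusted p = 0.22). The transsulfuration enzymes Cbs (-0.44, 0.39) and Cth (0.10, 0.91) were not called either.

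The 12 cytosolic tRNA synthetases of the list had positive log2 fold changes, from 0.02 to 0.50. So did 8784 of all 14336 genes tested and 7 of 8 further cytosolic synthetases. The lowest of the 12, of Tars, was -0.039 with median-of-ratios and -0.029 with quantile scaling. The median over all genes was 0.045 in the main fit, -0.0097 with median-of-ratios and -0.015 with quantile scaling. The threshold was passed by 4 of the 12 with limma, 2 with edgeR and 4 with DESeq2. Sars, which charges serine tRNA, was at 134, 114, 107, 113, 115 and 108 CPM in iNICD 1 to 6, against 83.2, 88.4, 76.6, 87.8, 77.6 and 75.2 CPM in control 1 to 6. The groups stood well apart, and the log2 fold change was 0.50 (SE 0.07, limma adjusted p = 0.00054). Gars, for glycine, was at 137, 121, 111, 94.4, 122 and 106 CPM in iNICD 1 to 6, against 81.6, 93.7, 80.1, 98.4, 79.3 and 89.5 CPM in control 1 to 6. iNICD 4 lay below control 4, and the log2 fold change was 0.40 (SE 0.09, limma adjusted p = 0.014). The Gars call was lost without the 3 Gm42418-rich libraries.

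The calls of Mars and Nars were close to the threshold. Mars, for methionine, was at 98.6, 82.6, 88.7, 86.2, 77.8 and 80.3 CPM in iNICD 1 to 6, against 72.9, 74.6, 68.6, 73.4, 69.7 and 65.2 CPM in control 1 to 6. The groups did not overlap (log2 fold change 0.27, limma adjusted p = 0.027), but the call was lost without iNICD 1 (0.068), iNICD 3 (0.064), control 3 (0.053), control 5 (0.060) or control 6 (0.054), and without the 3 Gm42418-rich libraries (0.094). It was also lost with edgeR (0.073), with no filter (0.057) and with median-of-ratios (0.089) or quantile (0.053) scaling. Nars, for asparagine, was at 106, 89.1, 92.7, 95.7, 92.6 and 90.8 CPM in iNICD 1 to 6, against 78.4, 77.6, 80.3, 76.6, 73.5 and 91.2 CPM in control 1 to 6. Control 6 lay within the iNICD range (log2 fold change 0.25, limma adjusted p = 0.042). The Nars call was kept only when the library left out was control 4 or control 6, and otherwise had limma adjusted p = 0.054 to 0.11. It was also lost without the 3 Gm42418-rich libraries (0.14), with no filter (0.089), with median-of-ratios (0.14) or quantile (0.087) scaling, with edgeR (0.11), with DESeq2 (0.082) and with a replicate block (0.067).

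Of the 8 synthetases not called, Aars, for alanine, averaged 132 ± 8.55 CPM in iNICD and 108 ± 15.1 CPM in control libraries (SD, n = 6 each), with a log2 fold change of 0.29 (limma adjusted p = 0.059). It passed without control 4 (0.0038), as did Cars, for cysteine (0.036; log2 fold change 0.21 and adjusted p = 0.35 with all libraries). Lars, for leucine, averaged 93.3 ± 8.92 CPM in iNICD and 77.9 ± 6.25 CPM in control libraries (SD, n = 6 each), with a log2 fold change of 0.26 (limma adjusted p = 0.066). It passed without iNICD 4 (0.043). The log2 fold changes of Eprs (0.11), Iars (0.13), Yars (0.14), Wars (0.07) and Tars (0.02) had limma adjusted p-values of 0.44 to 0.94.

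Libraries iNICD 1 and iNICD 4 stood at opposite ends of their group for most of the 16 genes that rose. iNICD 1 was the highest iNICD library for 12 of the 16 genes and iNICD 4 the lowest for 12, with a median log2 deviation from the group mean of 0.27 in iNICD 1 and -0.34 in iNICD 4. Ranks of these libraries over all genes were not counted, so the order may not be particular to these genes. Notch1 was at 4412, 5358, 3605, 5286, 3064 and 4287 CPM in iNICD 1 to 6, and its relation to this order was not tested. Among controls, control 4 was highest for 6 genes (Gars, Mthfd2, Asns, Gdf15, Chac1 and Trib3) and lowest for 3 (Aldh1l2, Pck2 and Ddit3). Of the 16 calls, 13 held whichever of the 12 libraries was left out. Without the 3 Gm42418-rich libraries, 9 genes of the program were called higher and 0 lower, where 2.64% of all genes were higher and 1.01% lower. The 9 were Mthfd2, Asns, Gdf15, Trib3, Phgdh, Chac1, Pck2, Atf5 and Sars.

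**Figure D4:**
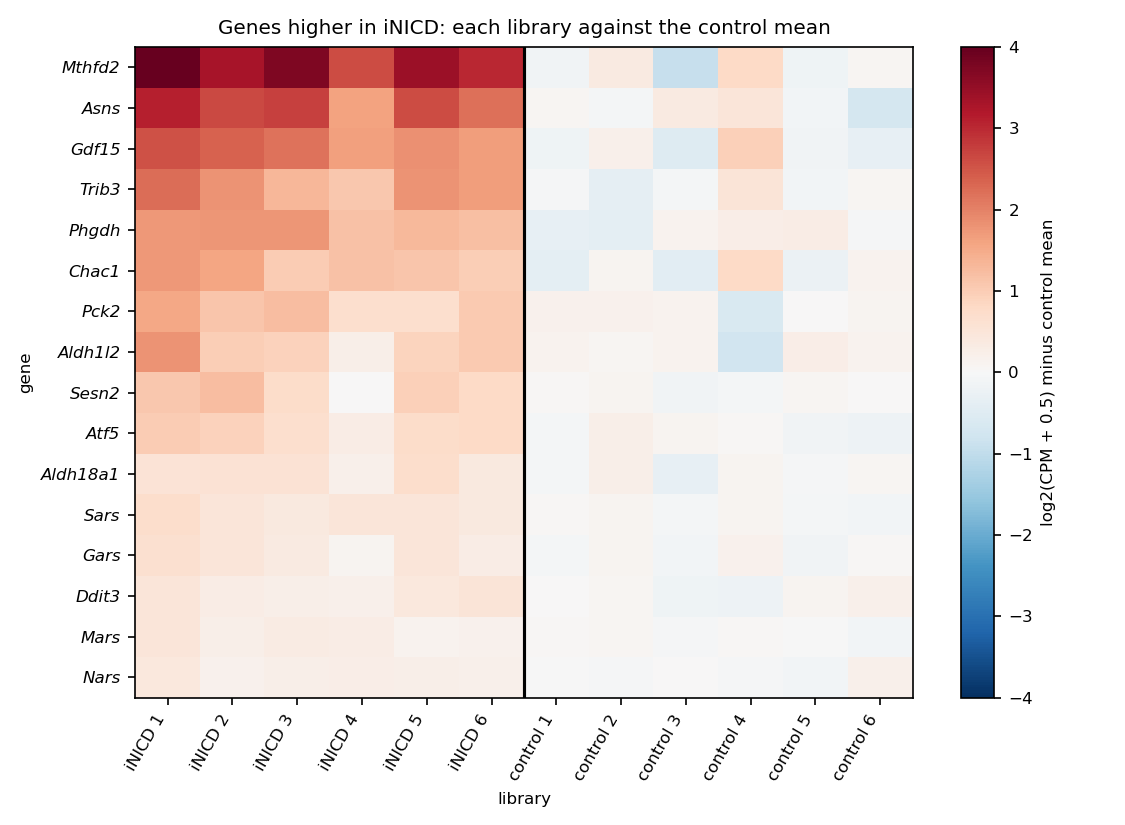
Log2(CPM + 0.5) minus the control mean (colour) of the 16 genes that rose (y axis) in each library (x axis, iNICD left of the line). iNICD 4 is the palest iNICD column for most genes, with a median deviation of -0.34 from its group, and control 4 differs in sign between Chac1 and Pck2.

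Markers of other cells and of division also differed between the groups. The summed level of 10 cycling cell markers was 49.9 to 126 CPM in iNICD and 28.9997 to 45.1 CPM in control libraries, without overlap. It was 123, 64.1, 126, 69.4, 49.9 and 55.6 CPM in iNICD 1 to 6. Of the 8 cycling markers tested 6 rose, where 4.87% of all genes tested were called higher. The calls of Birc5 and Rrm2 held in 5 and 3 of 12 fits with a library left out, and the rest held in all 12. The summed level of 10 macrophage markers was 489 to 715 CPM in iNICD and 409 to 526 CPM in control libraries. It was lowest in iNICD 4 among the iNICD libraries. Of the 10 macrophage markers 6 rose. The calls of Adgre1, Cx3cr1 and Ccr2 held in all 12 fits with a library left out, Fcgr1 in 7, Csf1r in 6 and C1qa in 4. The 8 lymphocyte markers summed to 6.77 to 12.2 CPM in iNICD and 3.25 to 6.64 CPM in control libraries, and 2 of the 3 tested rose. The 7 fibroblast markers summed to 2647 to 4825 CPM in iNICD and 2292 to 3263 CPM in control libraries, and 1 of 7 rose. That was Tcf21, whose call held in 1 of 12 fits with a library left out and was lost with edgeR. Without the 3 Gm42418-rich libraries the calls of Csf1r, Fcgr1, C1qa, Lck, Trac, Tcf21, Top2a, Birc5 and Rrm2 were lost. The lymphocyte and fibroblast sums were also lowest in iNICD 4 among the iNICD libraries. The atrial, endothelial, ventricular, adipocyte and hepatocyte sums were not. The part of any of these cells or of cell division in the levels of the 16 genes was not tested, and a shared lowest library cannot decide it. Of the endothelial (6), ventricular (4 tested) and adipocyte (5) markers 0 were called by limma or edgeR in either direction, with 1 endothelial marker lower at an unadjusted p under 0.05 and by DESeq2. The 4 hepatocyte markers summed to at most 2.82 CPM in iNICD and 2.16 CPM in control libraries, with Serpina1a at 0 in all libraries.

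The libraries of high and of low Xist were also fitted alone. With high Xist (3 iNICD and 4 control libraries), 20 of the 44 genes were called higher and 0 lower, where 6.39% of all genes were higher and 2.76% lower. Here Aars, Lars, Pycr1, Psat1 and Cebpg were gained and Ddit3 was lost (limma adjusted p = 0.069). With low Xist (3 iNICD and 2 control libraries), Mthfd2 alone was called, where 0.251% of all genes were higher and 0.00698% lower. It had a log2 fold change of 2.57 (limma adjusted p = 0.024), against 3.93 (0.00012) with high Xist. The other 15 called genes had positive log2 fold changes with low Xist too, among them Asns at 2.26 (0.15). These libraries were part of the fit that called the genes, so the shared sign is no separate check. The difference between the fold changes at high and at low Xist was called for 0 of the 44 genes and 0 of all 14336 (lowest limma adjusted p = 0.898), and 5 of the 44 had an unadjusted p under 0.05 (Cebpg, Chac1, Mthfd2, Gdf15 and Phgdh), as did 775 of all genes.

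In the pathway lists around the program, 0 to 2 genes of a list were called by limma, to be read against the 6.71% of all genes called in either direction. Of 13 genes of the eIF2 step upstream of ATF4, 1 rose (7.69%, where 4.87% of all genes did), Eif2ak2, an eIF2 kinase best known from antiviral defence. Eif2ak2 averaged 23.9 ± 4.33 CPM in iNICD and 14.5 ± 4.00 CPM in control libraries (SD, n = 6 each), a log2 fold change of 0.73 (limma adjusted p = 0.023) that held in 8 of 12 fits with a library left out. The kinases of ER stress, Eif2ak3, and of amino acid shortage, Eif2ak4, had log2 fold changes of -0.06 and 0.02. Of 20 genes of the ER arms of the unfolded protein response, 0 were called by limma or edgeR, 2 were higher with DESeq2, and 6 were higher at an unadjusted p under 0.05, where 13.3% of all genes were. Hspa5, the ER chaperone BiP, averaged 516 ± 44.03 CPM in iNICD and 450 ± 31.0 CPM in control libraries (SD, n = 6 each; limma adjusted p = 0.15). Of 14 genes of mitochondrial protein quality control, 0 were called by limma, edgeR or DESeq2, with 1 higher at an unadjusted p under 0.05 and a median log2 fold change of 0.02.

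Folate one-carbon units feed methionine and purine metabolism. Of 21 other folate, glycine and methionine cycle genes tested, 0 were called by limma, edgeR or DESeq2, with 1 higher at an unadjusted p under 0.05 and a median log2 fold change of -0.01. Of 13 genes of purine synthesis, Prps2, which makes the ribose precursor, rose (20.1 ± 3.39 CPM in iNICD and 13.4 ± 3.17 CPM in control libraries, SD, n = 6 each; limma adjusted p = 0.039, held in 5 of 12 fits with a library left out). Adssl1, the muscle adenylosuccinate synthase, fell to 61.4 ± 11.3 CPM in iNICD, against 79.7 ± 8.75 CPM in control libraries (SD, n = 6 each; limma adjusted p = 0.049, held in 2 of 12).

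Of 10 amino acid transporters tested, 0 were called by limma, edgeR or DESeq2, with 1 higher at an unadjusted p under 0.05. Slc7a11, the cystine transporter, was under the filter and was at 1.36 ± 0.611 CPM in iNICD and 0.438 ± 0.173 CPM in control libraries (SD, n = 6 each). Of 8 further cytosolic synthetases, 0 were called by limma, edgeR or DESeq2, with 1 higher at an unadjusted p under 0.05 and a median log2 fold change of 0.08. Of 17 mitochondrial synthetases, 0 were called by limma or edgeR, 1 was higher with DESeq2, and 2 were higher at an unadjusted p under 0.05. Lars2 was at 30.6, 128, 5049, 1005, 3636 and 204 CPM in iNICD 1 to 6, against 39.5, 30.2, 2202, 43.4, 73.1 and 24.6 CPM in control 1 to 6. It was high in the libraries where Gm42418 was high. Of 17 enzymes of proline, glutamine, aspartate and branched-chain metabolism tested, Sds, serine dehydratase, which breaks serine down to pyruvate, fell to 9.89 ± 2.86 CPM in iNICD, against 16.7 ± 4.54 CPM in control libraries (SD, n = 6 each; log2 fold change -0.74, limma adjusted p = 0.038, held in 4 of 12 fits with a library left out). In the list that holds Sds, 0 were higher and 1 lower with edgeR, where 2.66% of all genes were lower. With DESeq2 0 were higher and 3 lower, where 4.11% of all genes with an adjusted p were lower. At an unadjusted limma p under 0.05, 2 were higher and 4 lower, where 13.3% of all genes were higher and 5.53% lower. The limma calls of Eif2ak2, Prps2, Adssl1 and Sds were lost without the 3 Gm42418-rich libraries.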

How the data were processed

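The gene table holds CPM (counts scaled to each library's total), which the authors deposited with 1 column per library for 12 libraries. Its 41264 rows carry 40690 Ensembl identifiers, and of 574 repeated rows 1 copy was taken. Per the submitters' processing notes, STAR 2.4.0b and featureCounts were used. The sources used here do not give the genome build, annotation or strand setting, and overlapping or antisense genes may share reads. Titles gave the groups and the numbers 1 to 6. The labels do not say that each library is a single animal beyond 6 different samples per group, so p-values measure the spread between samples, which may be partly technical.

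Every value was a whole multiple of 1 read within 0.001 reads (100% of values), which gave the depths, and 1 read is 0.0440 to 0.0832 CPM. A gene was kept where at least 6 libraries reached 1 CPM (14336 kept, 26354 not). The main test was limma 3.58.1 (R 4.3.3, trend, robust) on log2(CPM + 0.5), iNICD minus control, with Benjamini-Hochberg adjustment over all kept genes and a threshold of 0.05. This scale understates the change of low genes. Exact two-sided permutation tests of single genes had 924 relabellings. Alternatives were other pseudocounts, filters and scalings, array weights, non-robust limma, an Xist covariate, a replicate block, libraries left out, and edgeR 4.0.16 and DESeq2 1.42.0 on the recovered reads. The fits on high or low Xist libraries alone were chosen after seeing the data. Methods were tested on simulated data.

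Members and lists were chosen with earlier results of these data known. Every member is named. Values in every library are given for each called member and for Atf4, Atf5, Ddit3, Fgf21, Gdf15, Mthfd2l, Shmt1 and Psph, and up to 3 called genes are named of each pathway list. Other genes were named after their values were seen. Positions, exon lengths and overlaps came from GENCODE M21 (GRCm38), and promoters from RefSeq (GRCm38.p6), matched by symbol. An exon length counts all annotated exons of a gene merged, and not those of the transcripts present in the tissue. The promoter sequence of 1 matched gene is not reported here. A planned comparison of protein sequences was not run.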

Additional observations from a re-analysis of the deposited data

Results flagged for a closer look

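In 88 groups of 6 libraries (each gene of the program in each genotype), the highest or lowest library was set against the others by the gap to its nearest neighbour as a share of the whole range, with Dixon's critical value for 6 samples as the limit. Chance alone flags about 1 in 20 groups, and 6 were flagged. Among genes that rose, Sars was at 134 CPM in iNICD 1 and at 107 to 115 CPM in the other iNICD libraries. Aldh1l2 had 22.6 CPM in control 4, below the 40.6 to 46.6 CPM of the remaining controls. Pck2 had 11.5 CPM in the same library, below the 17.9 to 20.1 CPM of the remaining controls. Without control 4 the log2 fold change was 0.83 for Aldh1l2 (limma adjusted p = 0.032), against 0.98 with all libraries, and 0.92 for Pck2 (0.00031), against 1.04. Without iNICD 1 it was 0.45 for Sars (0.0014), against 0.50.

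Among genes not called, Pycr1 was at 2.00 CPM in iNICD 4 and at 4.29 to 6.14 CPM in the other iNICD libraries, and without iNICD 4 it was called higher. Shmt1 was at 9.42 CPM in iNICD 2 and at 5.94 to 7.07 CPM in the other iNICD libraries. Shmt2 was at 38.0 CPM in iNICD 2 and at 40.7 to 42.4 CPM in the other iNICD libraries, a narrow range.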

How the results depend on the processing

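The number of genes of the program called higher, 16 with all libraries, was 9 without the 3 libraries rich in Gm42418, 1 with low Xist libraries alone and 12 to 20 in the other settings, and leaving out single libraries gave 13 to 19. None was called lower in any setting. The count of 12 came with a filter at a mean of 5 CPM, which left 36 genes of the program to test. That filter took out the called genes Gdf15, Phgdh, Chac1 and Trib3. The cause of the other moves was not tested. Over all genes, 698 were higher and 264 lower. Higher genes numbered 378 without the 3 Gm42418-rich libraries and 36 with low Xist alone, and 458 (without iNICD 1) to 782 with single libraries left out. Lower genes numbered 407 with quantile scaling, 552 with array weights, 587 with DESeq2, 145 without the 3 libraries and 1 with low Xist alone, and 186 to 432 (without control 4) with single libraries left out. Of all calls 72.6% were higher, and 61.0% with median-of-ratios scaling, 59.7% with quantile scaling, 62.5% with edgeR and 58.8% with DESeq2.

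Replicate numbers were not taken as pairs, since nothing in the labels ties them to a litter or day and not every same-number pair of libraries deviated together. Their correlations were -0.006 to 0.32, with 4 of 6 over 0.1, and 3 of 6 libraries correlated best with their own number, a hint of pairing from the data and not from the design. With a replicate block, 15 genes of the program were higher and 0 lower, with Nars lost (adjusted p = 0.067), and over all genes 794 were higher and 297 lower.

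Signs changed only in genes that were not called, with the cause not tested. Log2 fold changes without the 3 libraries were -0.025 for Tars, -0.12 for Ppp1r15a, -0.077 for Stc2 and -0.15 for Nupr1. For Tars and Ppp1r15a they were -0.041 and -0.078 with edgeR and -0.043 and -0.079 with DESeq2. With median-of-ratios scaling they were -0.039 for Tars, -0.027 for Ppp1r15a and -0.015 for Stc2, and with quantile scaling -0.029 for Tars, -0.0075 for Ppp1r15a and -0.023 for Stc2. With high Xist alone they were -0.0084 for Eif4ebp1, -0.15 for Stc2 and 0.10 for Atf4. With low Xist alone they were -0.15 for Tars, 0.18 for Aldh1l1, -0.48 for Mthfd1l, 0.43 for Ddit4, -0.20 for Ppp1r15a, -0.068 for Cebpg and -0.21 for Nupr1. Leaving out single libraries gave -0.0061 to 0.060 for Tars, -0.013 to 0.35 for Mthfd1l, -0.017 to 0.30 for Cth, -0.076 to 0.15 for Ppp1r15a, -0.052 to 0.15 for Stc2, -0.18 to 0.057 for Cebpb and -0.012 to 0.28 for Nupr1. Depth limits Fgf21, with at most 2 reads in a library.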
